A study of Mus musculus with 6 samples.

Results

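Interleukins are secreted cytokines through which immune and tissue cells signal to each other. Each binds a receptor built from a chain that recognises it and a chain that is often shared with other interleukins. Most of these receptors work through JAK kinases and STAT transcription factors, while the IL-1 and IL-17 receptors work through adaptor proteins that lead to NF-κB. In skeletal muscle, macrophages, fibroblasts, endothelium and the fibers themselves make or receive them, and IL-6 and IL-15 are known as cytokines of muscle.

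The genes described here are those whose symbol begins with Il and a digit in the platform annotation, other than Il6st, and that at least 1 probe set names alone. There were 69 such genes of 17097 that could be followed by name, with 98 probe sets between them, and they were taken by name and not by how they changed. By role they are 32 ligands, 30 receptor chains, 6 inhibitors or decoys and 1 enzyme, Il4i1. Other interleukin genes were not analysed here. RNA of the gastrocnemius was hybridized to 6 Affymetrix mouse arrays, with 3 arrays in each group, all of muscle taken 14 days after both sciatic nerves were cut. The MA group received a diet with 0.27% maslinic acid, a triterpene of olive peel, from the week before surgery, and the control group received the same diet without it. All were male ICR mice, an outbred stock, 7 weeks old on arrival. Since both groups were denervated, the arrays compare the diets and not denervation itself.

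A gene is read at its brightest probe set as the log2 value that RMA gave, and a difference is that of MA minus control, tested with limma over all 45037 probe sets that are not array controls. The words rose, fell and called are kept for an adjusted p under 0.05. The background level, the highest value that the array's nonspecific-binding controls reached, was 3.95 on the log2 scale, leaving out 1 such control of the highest GC content that averaged 7.24. Across probe sets, Pearson's r between 2 arrays was 0.9992 to 0.9997 within a group and 0.9934 to 0.9937 between groups. Nothing in the sources used here ties the 3 arrays of a group to separate mice, so p-values measure the spread between arrays. Spiked hybridization controls, which no diet can change, read higher on the MA arrays in 18 of 18 cases, with a median difference of 0.17 and a maximum of 0.35 on the log2 scale. All 8 fiber markers of skeletal muscle, the labelled tissue, were above the background, with Acta1 averaging 12.62 on MA arrays and 12.49 on control arrays.

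Most interleukin genes lay near or under the background, and the differences among them were small. Of the 69 genes, 39 had a mean over the 6 arrays above the background and 30 lay at or under it in both groups. The last gene above the background was Il2rb, with a mean of 3.96, and the first under it was Il1r2, with 3.92. Receptor chains were above it in 21 of 30 cases, ligands in 13 of 32 and inhibitors in 5 of 6. The median of the members was 4.04, beside 4.88 for all genes, of which 70.9% were above the background. These values describe signal on the array, since probe sets of different genes bind with different strength and their levels do not rank the RNAs.

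**Figure D1:**
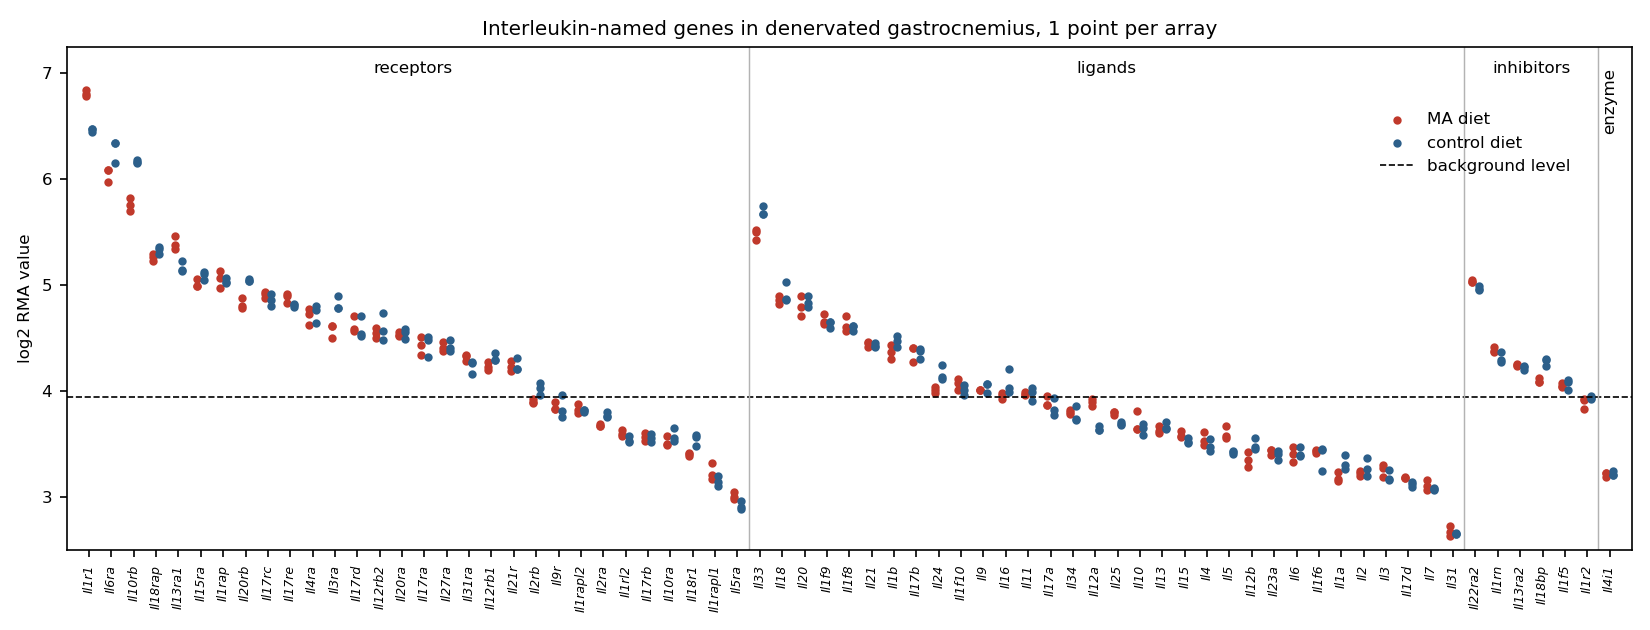
Log2 RMA value of each of the 69 interleukin-named genes on every array, with MA in red left of control in blue, grouped by role and ordered by mean. The dashed line is the background level of 3.95, which 39 of the genes exceeded, and Il1r1 and Il10rb are the genes whose groups stand farthest apart.

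In the MA group 7 members rose and 12 fell, while 50 were not called, so that 27.5% of the members were called, beside 47.8% of all genes. Higher calls made up 10.1% of the members and 24.7% of all genes, and lower calls 17.4% of the members and 23.0% of all genes. Of the 39 members above the background, 3 rose and 8 fell, or 28.2% called, beside 57.1% of all genes above it. The median of the differences' absolute sizes was 0.055 over the members and 0.080 over all genes. The study's methods asked for a fold over 1.2 with an unadjusted p under 0.05. By that rule 2 members passed, or 2.90%, beside 12.8% of all genes. They were Il1r1, higher, beside 5.92% of all genes, and Il10rb, lower, beside 6.87% of all genes. The arrays of both groups did not overlap at 26 members, or 37.7%, beside 58.6% of all genes, and at 15 of the 39 members above the background, or 38.5%, beside 67.1% of all genes above it.

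**Figure D2:**
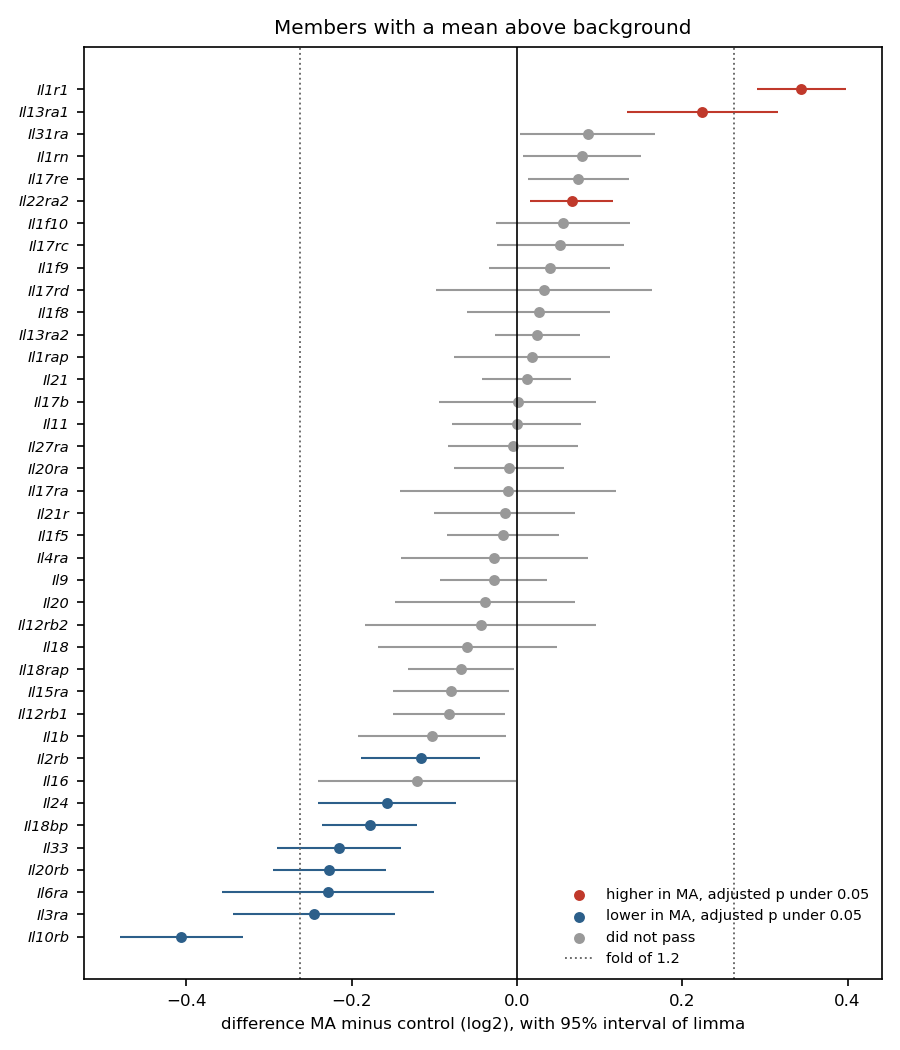
Difference between MA and control (log2) of the 39 interleukin genes with a mean above the background, with the 95% interval of limma, coloured where the adjusted p was under 0.05. The dotted lines mark a fold of 1.2, which the point of Il1r1 exceeds on the right, at 0.34, and that of Il10rb on the left, at -0.41.

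Before their values, the start regions of 4 called members are shown, read from RefSeq's table of promoters, build GRCm38.p6, which matched 53 of the 69 genes by symbol. The 150 bases before a start site are given 5′ to 3′ for 2 receptors that rose, Il1r1 and Il13ra1, and for a receptor and a ligand that fell, Il6ra and Il33. Capitals mark matches to any of 6 motifs, searched on both strands. Il1r1 and Il33 have 2 start sites each in the table, and the one with a match is shown.
Il1r1 (chr1:40266436-40266585, plus strand): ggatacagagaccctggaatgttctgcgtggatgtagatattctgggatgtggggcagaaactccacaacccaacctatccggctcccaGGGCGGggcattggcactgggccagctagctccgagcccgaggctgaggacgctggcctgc
Il13ra1 (chrX:36111958-36112107, plus strand): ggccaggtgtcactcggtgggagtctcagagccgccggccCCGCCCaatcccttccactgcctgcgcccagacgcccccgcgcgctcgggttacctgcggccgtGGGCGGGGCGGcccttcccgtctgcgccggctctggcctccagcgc
Il6ra (chr3:89913197-89913346, minus strand): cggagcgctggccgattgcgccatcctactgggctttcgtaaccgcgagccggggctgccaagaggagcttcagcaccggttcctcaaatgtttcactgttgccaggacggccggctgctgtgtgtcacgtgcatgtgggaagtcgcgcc
Il33 (chr19:29945640-29945789, plus strand): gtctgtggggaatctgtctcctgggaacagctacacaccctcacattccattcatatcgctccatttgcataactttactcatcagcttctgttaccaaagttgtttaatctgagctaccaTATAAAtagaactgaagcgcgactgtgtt
The motifs were the STAT site TTCNNNGAA, the interferon element GAAANNGAAA, the NF-κB site GGGANNTTCC, the AP-1 site TGANTCA, the Sp1 site GGGCGG and the TATA box TATAAA. The windows of Il1r1 and Il13ra1 hold Sp1 letters, whose first base lies 61 bases before the start of Il1r1 and 41, 46 and 110 bases before that of Il13ra1, where 2 matches overlap by 1 base. Receptors that fell held Sp1 letters too, in windows not shown. These letters lay 50 bases before the start of Il20rb and 98 and 103 bases before that of Il3ra. That motif was in 28.6% of all 32851 windows of this length. The window of Il33 holds a TATA box 29 bases before the start, a motif in 7.57% of all windows, and that of Il6ra holds none of the 6. A match is a description of letters and not a site of binding.

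Il1r1, the receptor through which IL-1α and IL-1β signal, was the only member whose brightest probe set rose by more than 1.2-fold. Its single probe set read 6.79, 6.84 and 6.80 in the MA group and 6.45, 6.47 and 6.48 in the control group. Every MA array was above every control array, with a gap wider than the range within either group. The rise was 1.27-fold, or 0.34 on the log2 scale (95% interval 0.29 to 0.40, adjusted p = 9.1e-06), which is close to the largest difference of a hybridization control, 0.35. An exact permutation test of 3 arrays against 3 gave p = 0.1, two-sided, the smallest that this design allows, and it gave the same for Il10rb, Il6ra, Il13ra1, Il33, Il20rb and Il3ra.

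The IL-1 family, receptors and inhibitors included, has 19 members here, of which Il1r1 alone rose, 4 fell and 14 did not pass. The share called among all genes was 47.8%. Neither the second chain of the receptor nor a ligand of it was called above the background. Il1rap, the accessory chain that Il1r1 needs to signal, averaged 5.06 ± 0.084 (SD, n = 3) on MA arrays and 5.04 ± 0.028 (SD, n = 3) on control arrays, with a difference of 0.02 (95% interval -0.08 to 0.11, adjusted p = 0.745). Of its 5 probe sets, 4 did not pass and 1 fell, by 0.24, at a level under the background. Il1b differed by -0.10 (95% interval -0.19 to -0.01, adjusted p = 0.0635), with overlapping groups, and leaving out MA replicate 3 (adjusted p = 0.0292) or control replicate 1 (adjusted p = 0.0336) made it pass. Il1a lay under the background, where the MA arrays averaged 3.19 and the control arrays 3.32, and fell (adjusted p = 0.0214). Il1rn, the secreted antagonist of the receptor, had a difference of 0.08 at the brightest of 3 probe sets (adjusted p = 0.0749), while another fell by 0.08 (adjusted p = 0.0286), so that its direction depends on the probe set. Il1r2, the decoy receptor, was at the background.

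Of the other IL-1 family genes, Il33 and Il18bp fell at levels above the background. Il33, a nuclear cytokine that damaged cells release, read 5.52, 5.50 and 5.43 in the MA group and 5.68, 5.68 and 5.75 in the control group. The groups did not overlap, and the fall was 1.16-fold, or -0.22 on the log2 scale (95% interval -0.29 to -0.14, adjusted p = 0.000938). With Il24, it was 1 of 2 ligands that were called above the background. Il18bp, which binds IL-18 and blocks it, averaged 4.10 ± 0.019 (SD, n = 3) on MA arrays and 4.28 ± 0.032 (SD, n = 3) on control arrays, a difference of -0.18 (adjusted p = 0.000626). Il18 itself differed by -0.06 (95% interval -0.17 to 0.05, adjusted p = 0.335). Of the chains of its receptor, Il18rap differed by -0.07 (adjusted p = 0.0821), and Il18r1, under the background, fell by 0.15 (adjusted p = 0.00585).

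Of the 8 members of the IL-10 family, Il10rb, Il20rb and Il24 fell, Il22ra2 rose and 4 did not pass. Of all genes, 47.8% were called. Il10rb, the second chain of the IL-10 receptor, which the receptors for IL-22 and interferon lambda share, read 5.70, 5.76 and 5.82 in the MA group and 6.16, 6.18 and 6.16 in the control group at the brighter of 2 probe sets. The highest MA array was well under the lowest control array. The fall was 1.33-fold, or -0.41 on the log2 scale (95% interval -0.48 to -0.33, adjusted p = 2.25e-05), the largest difference of any member. Its other probe set lay under the background, where the MA arrays averaged 3.10 and the control arrays 3.12 (adjusted p = 0.731), and when both were averaged the fall was under 1.2-fold. Il10ra, the chain that recognises IL-10, and Il10 itself were under the background in both groups and did not pass.

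Il20rb, the chain that the receptors for IL-20 and IL-24 share, read 4.78, 4.80 and 4.88 in the MA group and 5.05, 5.04 and 5.06 in the control group. These values did not overlap, and the fall was 1.17-fold (adjusted p = 0.000408). Its partner chain Il20ra differed by -0.01 (95% interval -0.08 to 0.06, adjusted p = 0.814). Of their ligands, Il24 fell to 4.01 ± 0.029 (SD, n = 3) on MA arrays, against 4.17 ± 0.069 (SD, n = 3) on control arrays, close to the background and not called in the one-way test without moderation (adjusted p = 0.0611), and Il20 differed by -0.04 (adjusted p = 0.541). Il22ra2, a soluble decoy that captures IL-22, rose by 0.07 (adjusted p = 0.0396). That is the smallest difference among the called members. Its call was lost whenever any array but control replicate 1 was left out, with adjusted p between 0.0641 and 0.123.

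Il6ra, Il3ra and Il2rb, chains of the receptors for IL-6, for IL-3 and for IL-2 and IL-15, also fell. Il6ra, which binds IL-6 before it joins gp130, read 5.97, 6.09 and 6.09 in the MA group and 6.15, 6.34 and 6.35 in the control group. In each group 1 array was lower than the others, and the highest MA array was only just under the lowest control array. The difference was -0.23 (95% interval -0.36 to -0.10, adjusted p = 0.011). Its other probe set, also above the background, differed by 0.01 (adjusted p = 0.76), so that the fall of Il6ra rests on 1 of 2 probe sets. In a one-way test without moderation its call was lost (adjusted p = 0.0882). Il6 was under the background, with means of 3.40 on MA arrays and 3.42 on control arrays.

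Il3ra, the chain of the IL-3 receptor that recognises IL-3, read 4.50, 4.61 and 4.62 in the MA group and 4.78, 4.90 and 4.79 in the control group. The groups did not overlap, and the fall was 1.19-fold (95% interval of the log2 difference -0.34 to -0.15, adjusted p = 0.00202). Without MA replicate 2, MA replicate 3, control replicate 1 or control replicate 3 it passed 1.2-fold as well. The signaling chains that IL-3 shares with other cytokines fell too, Csf2rb by 0.24 (adjusted p = 0.000115) and Csf2rb2, a chain for IL-3 in mice, by 0.36 (adjusted p = 0.000945), with no overlap between the groups at either. Il2rb, a chain of the IL-2 and IL-15 receptors, fell by 0.12 (adjusted p = 0.0171), with all MA arrays under the background and all control arrays above it. Its other probe sets, both under the background, differed by 0.02 and 0.03 and did not pass, and its call was lost for the mean of its probe sets (adjusted p = 0.431).

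Il13ra1, which pairs with Il4ra in a receptor for IL-4 and IL-13, rose. Its brightest probe set read 5.47, 5.34 and 5.38 in the MA group and 5.23, 5.15 and 5.14 in the control group. The groups did not overlap, and the rise was 1.17-fold, or 0.22 on the log2 scale (95% interval 0.13 to 0.32, adjusted p = 0.00227). All 5 of its probe sets were called higher, by 0.08 to 0.36, and 3 of them were above the background, the last of these by 1.28-fold. Il4ra differed by -0.03 (95% interval -0.14 to 0.09, adjusted p = 0.686) with overlapping groups. The ligands Il4 and Il13 were under the background and did not pass. Il15ra, which presents IL-15 to neighbouring cells, differed by -0.08 (adjusted p = 0.0646), and leaving out MA replicate 1 (adjusted p = 0.0387) or control replicate 1 (adjusted p = 0.0227) made it pass. Il15 was under the background too, with means of 3.59 on MA arrays and 3.53 on control arrays.

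**Figure D3:**
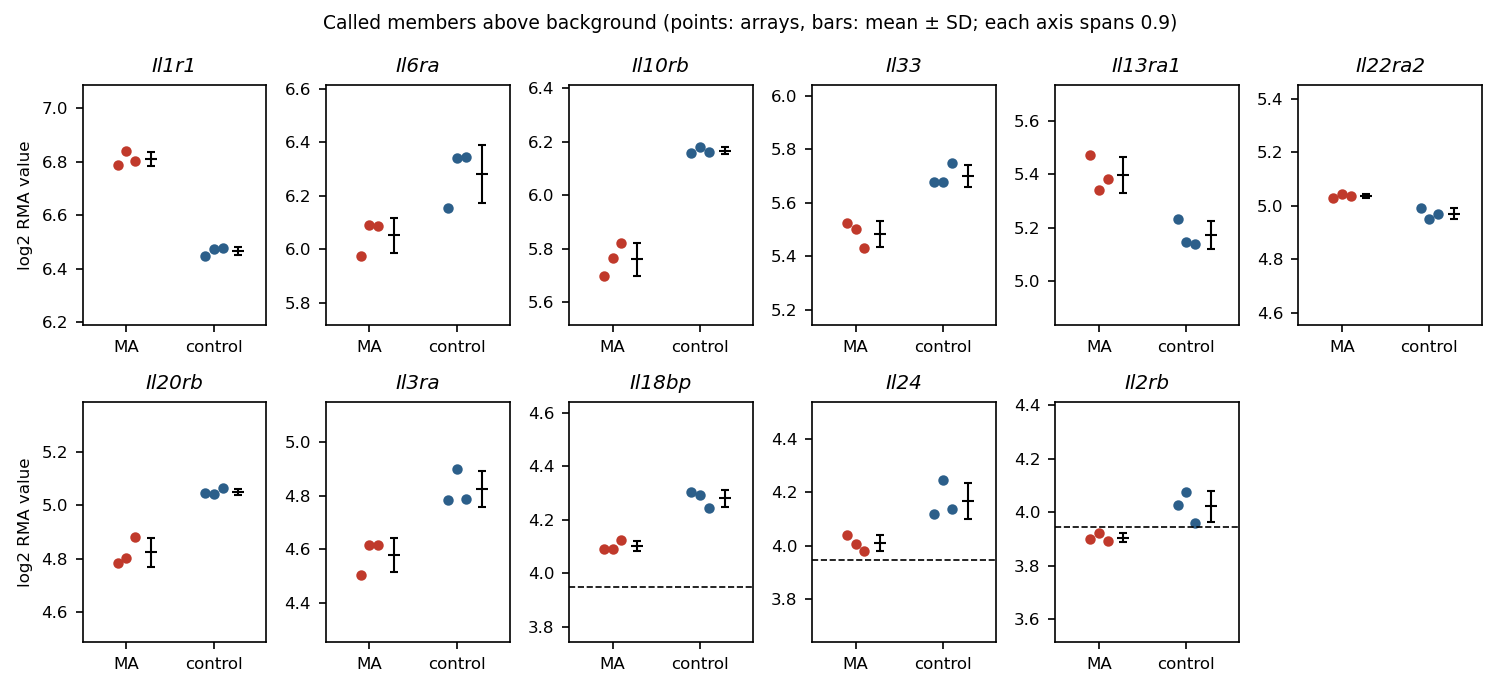
Log2 RMA value on each array (points) of the 11 interleukin genes that were called and had a mean above the background, with MA left of control and the mean ± SD of 3 arrays as bars. Every panel spans the same 0.9 log2 units, and the dashed line is the background of 3.95, which all 3 MA arrays of Il2rb lie under.

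Of the 9 members of the IL-17 family, Il25 rose, at a level under the background, and 8 did not pass, while 47.8% of all genes were called. Il17rc, a chain of the receptor for IL-17A, differed by 0.05 (adjusted p = 0.242) and Il17re, the receptor for IL-17C, by 0.07 (adjusted p = 0.0544). Each had another probe set that rose by 0.16, that of Il17re above the background (adjusted p = 0.011) and that of Il17rc under it (adjusted p = 0.00112). Il17ra, the chain that most IL-17 receptors share, differed by -0.01 (95% interval -0.14 to 0.12, adjusted p = 0.893), and its other probe set, with a mean of 3.87 on MA arrays and 3.99 on control arrays, fell by 0.12 with no overlap (adjusted p = 0.0114). Il25, a ligand of the family, rose by 0.10 (adjusted p = 0.00667), and the ligand Il17a was under the background and did not pass.

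The 16 remaining members above the background, none of which passed, differed by -0.12 to 0.09. They were the ligands Il1f8, Il1f9, Il1f10, Il9, Il11, Il16, Il17b and Il21, the receptor chains Il12rb1, Il12rb2, Il17rd, Il21r, Il27ra and Il31ra, the decoy receptor Il13ra2 and the antagonist Il1f5. The groups did not overlap at 3 of them, Il31ra (0.09, adjusted p = 0.0853), Il12rb1 (-0.08, adjusted p = 0.0534) and Il16 (-0.12, adjusted p = 0.095). Among all genes above the background, called or not, the groups did not overlap at 67.1%. The genes Il1f5 to Il1f10 are known today as members of the IL-36 group and IL-38.

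Among the 30 genes at or under the background, 4 rose and 4 fell, or 26.7%, beside 25.0% of all genes at or under it. They were Il12a, Il5, Il25 and Il5ra, which were higher, and Il12b, Il18r1, Il1a and Il2ra, which were lower. The largest was Il12a, a subunit of IL-12 and IL-35, at 3.86, 3.93 and 3.90 in the MA group and 3.64, 3.63 and 3.67 in the control group (adjusted p = 0.000104). The mean of each of the 8, in both groups, was under the level that nonspecific controls reach, so these differences are given as array signal only. The 22 others, which did not pass, were Il1r2, Il17a, Il9r, Il1rapl2, Il34, Il10, Il13, Il1rl2, Il17rb, Il15, Il10ra, Il4, Il23a, Il6, Il1f6, Il2, Il3, Il4i1, Il1rapl1, Il17d, Il7 and Il31.

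**Figure D4:**
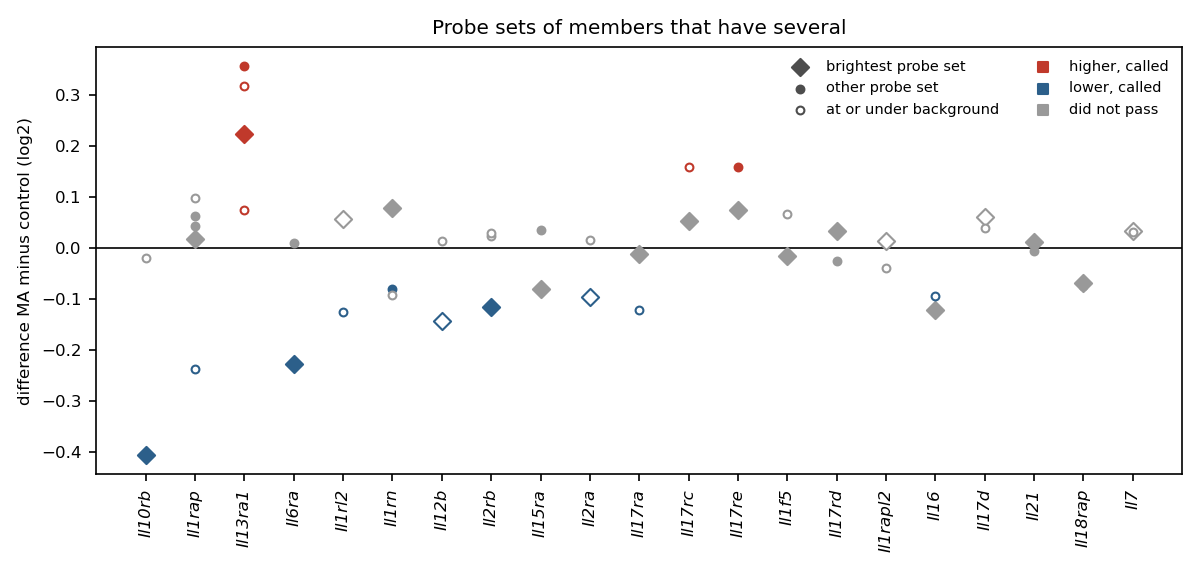
Difference between MA and control (log2) at each probe set of the 21 interleukin genes that have several, with diamonds for the brightest, open symbols for a mean at or under the background and colours for calls. All 5 probe sets of Il13ra1 lie above 0, while those of Il10rb and Il6ra are split between the called fall of the brightest and a difference near 0.

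Genes that carry interleukin signals inside the cell, or are shared by interleukin and other receptors, were listed beside the members. The list was made with earlier results of these data known, so its shares describe the list only. Of 42 listed, 39 were measured, 17 fell, 4 rose and 18 did not pass, so that 53.8% were called, beside 47.8% of all genes. Of the 35 above the background 57.1% were called, the same share as of all genes above it, 57.1%. Lower calls made up 43.6% of the list and 23.0% of all genes, and higher calls 10.3% of the list and 24.7% of all genes. Il6st, the gp130 chain that IL-6 shares with many cytokines, read 9.35, 9.34 and 9.36 in the MA group and 9.57, 9.57 and 9.59 in the control group. It fell with Lifr, its partner in the receptor for leukemia inhibitory factor, which fell by 0.31 (adjusted p = 1.3e-05) at its brightest probe set. The second brightest probe set of Lifr, also above the background, differed by -0.02 (adjusted p = 0.627). Osmr differed by 0.04 (adjusted p = 0.163). Ebi3, a subunit of IL-27 and IL-35, fell by 0.30 (adjusted p = 0.000415).

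Of the kinases, Tyk2, which serves Il10rb and the IL-12 receptors, fell by 0.23 (adjusted p = 0.000222). Jak2 fell by 0.09 and Jak1 rose by 0.11 at their brightest probe sets, but at the second brightest Jak2 was called higher, by 0.32 (adjusted p = 0.0122), and Jak1 differed by -0.06 (adjusted p = 0.25), and neither was called when probe sets were averaged. Jak3, the kinase of the common gamma chain, differed by -0.01 (adjusted p = 0.738). Stat5b, a factor of the IL-2 and IL-3 receptors among others, read 8.50, 8.50 and 8.50 in the MA group and 8.14, 8.15 and 8.15 in the control group. It rose by 0.35 with no overlap (adjusted p = 3.27e-06), while Stat5a differed by -0.01 (adjusted p = 0.836). Stat6, the factor that IL-4 and IL-13 activate, fell by 0.11 (adjusted p = 0.0318), and Stat3, the factor of IL-6 and IL-10, differed by -0.02 (95% interval -0.07 to 0.04, adjusted p = 0.555). Of the IL-1 route, Myd88, the adaptor that receptors of the IL-1 family recruit, fell by 0.20 (adjusted p = 0.00327) and Irak3, an inhibitor of that route, by 0.12. Irak1 (0.08, adjusted p = 0.052) and Traf6 (0.01, adjusted p = 0.862) did not pass at their brightest probe sets. At its second brightest, above the background, Traf6 was called higher, by 0.10 (adjusted p = 0.0139). It was called higher as well when probe sets were averaged (adjusted p = 0.0144). The second brightest probe set of Irak3, under the background, differed by -0.002 (adjusted p = 0.946). The call of Irak3 was lost when probe sets were averaged (adjusted p = 0.0928). Casp1 and Pycard, which process IL-1β and IL-18 in the inflammasome, fell by 0.17 (adjusted p = 0.00368) and 0.19 (adjusted p = 0.0011), and Nlrp3, its sensor, differed by 0.07 (adjusted p = 0.109). Casp1 lay close to the background, with a mean of 3.90 on MA arrays, under it, and 4.07 on control arrays. The second brightest probe set of Pycard, under the background, differed by -0.008 (adjusted p = 0.852). Nfkbiz, an NF-κB cofactor that IL-1 and IL-17 induce, fell by 0.34, and its second brightest probe set differed by 0.02 (adjusted p = 0.59).

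The largest rise on the list was that of Traf3ip2, the adaptor Act1 of the IL-17 receptors, which read 5.86, 6.04 and 5.98 in the MA group and 5.17, 5.42 and 5.36 in the control group. The groups were far apart, and the rise was 1.56-fold (95% interval of the log2 difference 0.49 to 0.80, adjusted p = 0.000114). The largest fall was that of Cish, an inhibitor that cytokines induce through STAT5, by 1.02, followed by Socs2, another, by 0.95.

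**Figure D5:**
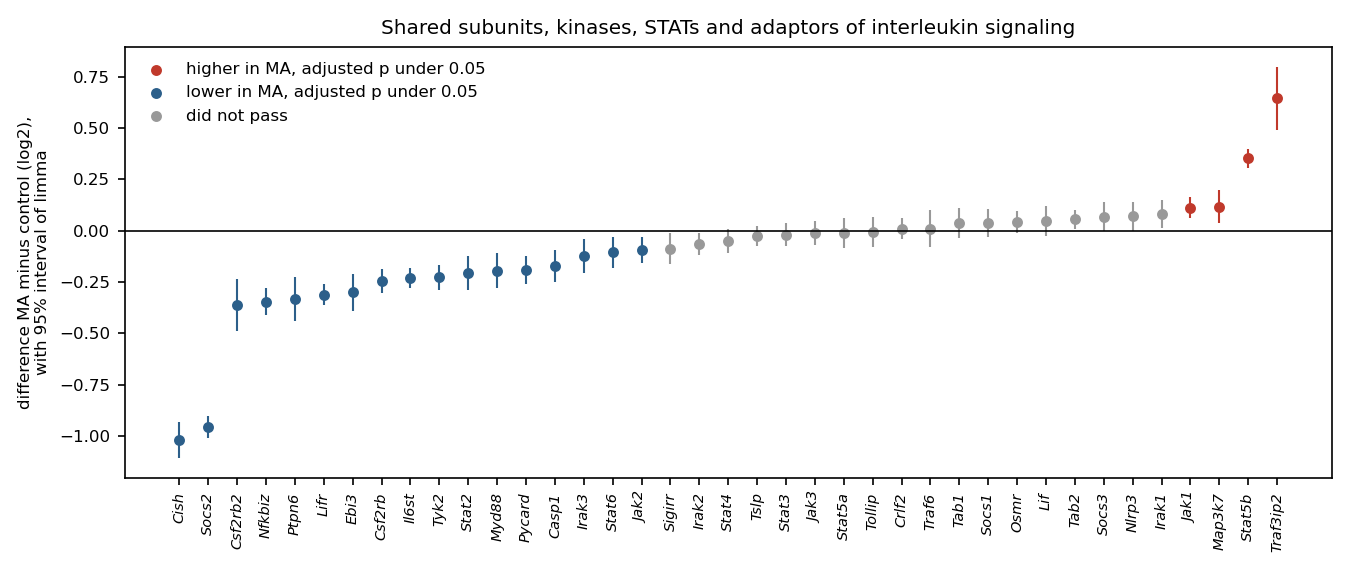
Difference between MA and control (log2), with the 95% interval of limma, of 39 genes for shared receptor subunits, kinases, STAT factors, adaptors and inhibitors of interleukin signaling. Of these, 17 were lower and 4 higher at an adjusted p under 0.05, from Cish at -1.02 to Traf3ip2 at 0.64.

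Markers of several cell types differed between the groups as well. Beside the counts below, 47.8% of all genes were called, 24.7% higher and 23.0% lower, and 57.1% of those above the background. Of 12 macrophage markers, 10 fell and 2 did not pass, with a median difference of -0.64, and their summed signal lay between 1672 and 1717 in the MA group and between 2746 and 2812 in the control group. Itgam and Mertk of that list were at or under the background. Of 6 endothelial markers, 5 fell and 1 did not pass, with a median of -0.22 and sums of 222 to 226 in the MA group and 251 to 265 in the control group. Of 9 T cell markers, 4 fell, 1 rose and 4 did not pass, with a median of -0.04 and sums of 203 to 205 in the MA group and 240 to 245 in the control group, and Cd3g, Cd8b1, Cd2 and Cd5 lay at or under the background. Without Cd28, which averaged 5.78 on MA arrays and 6.54 on control arrays, the T cell sums overlapped, at 148 to 149 on MA arrays and 149 to 151 on control arrays. The falls of Il10rb, Il6ra, Il33, Il3ra, Il20rb, Il18bp, Il24 and Il2rb had the direction of these lists' medians. The rises of Il1r1, Il13ra1 and Il22ra2 had the other direction. These genes were sorted by direction, so the match in sign follows from the sorting. The part of these markers in these falls and rises was not tested. Of 6 fibroblast markers, 3 rose, 1 fell and 2 did not pass, with a median of 0.03. Their sums were 3231 to 3254 on MA arrays and 3145 to 3165 on control arrays. Of these markers, Lum averaged 8.93 on MA arrays and 8.28 on control arrays. Dcn, the brightest, differed by -0.04 (adjusted p = 0.128), and Dpt fell by 0.12. The part of fibroblast markers in the rises of Il1r1 and Il13ra1 was not tested either. Sums were also higher on MA arrays for muscle fiber, neutrophil and B cell markers. Of 8 fiber markers 4 rose and 4 did not pass, with a median of 0.07. Of 5 neutrophil markers S100a8 rose by 0.65, S100a9 fell by 0.11, under the background, and 3 did not pass, with a median of 0.02. Of 4 B cell markers Cd79a rose by 0.08 and 3 did not pass, with a median of 0.03. Lower sums on MA arrays were those of NK cell, dendritic cell and adipocyte markers, while those of mast cell markers overlapped. Of 6 NK cell markers 3 fell and 3 did not pass. Of 5 dendritic cell markers 1 fell, Zbtb46, and 4 did not pass. The 2 adipocyte markers went opposite ways, as Adipoq rose by 0.64 and the brighter Fabp4 fell by 0.22. In whole muscle, fewer cells of a type and less RNA per cell cannot be told apart.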

How the data were processed

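Total RNA of gastrocnemius muscle was labelled with a 3′ IVT kit and hybridized to Affymetrix array strips. The study's methods name a mouse array and the design text a human one, and the probe sets are those of mouse. Scans were processed by the authors with RMA in Expression Console (version not given in the sources used here), which leaves deposited log2 values. These were used without further normalization, for 6 arrays, 3 per group. Array medians were 4.27 to 4.28, and the number of arrays limits the precision.

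After 104 control probe sets were set aside, each of 45037 probe sets was fitted with lmFit and eBayes in limma 3.58.1 (R 4.3.3), with no covariate. Adjustment of p followed Benjamini and Hochberg, across all probe sets. Annotation named 1 gene for 28898 probe sets and several for 551, of which 1 that names Il4i1 with another gene was not used. All 69 symbols matched RefSeq by gene ID. The steps were tested on simulated data.

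Named genes were the members past 1.2-fold, the 10 brightest, partner chains and ligands of those receptors, and the 3 whose probe sets disagree most. Other members and the partner genes were named after their values were seen. Members and lists were chosen with earlier results of these data known. Alternatives were moderation with a trend or robustly, a second quantile normalization, centring, only probe sets above the background, array weights, the replicate number as block, averaged or second brightest probe sets, a one-way test without moderation, a stricter fold, and each array left out.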

Additional observations from a re-analysis of the deposited data

How the results depend on the processing

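Across the alternatives the count of called members stayed between 13 and 25, beside 19, except that none passed with a fold over 1.5, also at an unadjusted p under 0.05 with limma, in either direction (0 higher and 0 lower). Testing only probe sets above the background, which leaves fewer genes, gave 4 higher members instead of 7, and the one-way test without moderation gave 7 lower members instead of 12, losing Il6ra, Il24, Il2rb, Il12b, Il1a and Il5ra from all calls. At the methods' thresholds 1 member passed instead of 2, with 0 lower, when a gene's probe sets were averaged or the second brightest was used, since Il10rb has a dim second probe set. Leaving out each array in turn gave 2 to 4 members at those thresholds, 1 to 2 of them higher and 1 to 3 lower, with Il12a added without MA replicate 1, Il3ra without MA replicate 2, MA replicate 3, control replicate 1 or control replicate 3, and Il6ra without control replicate 1. Called members then numbered 15 to 24, and called partner genes 18 to 21. Array weights gave 7 higher partner genes instead of 4, and the cause was not tested. At the second brightest probe set the direction turned for 11 of the 21 members that have several. Of these, 6 were called at 1 of both probe sets, namely Il6ra (0.010), Il1rn (-0.082), Il2rb (0.023), Il1rl2 (-0.13), Il12b (0.013) and Il2ra (0.015), and 5 at neither, namely Il15ra (0.034), Il17rd, Il1f5, Il1rapl2 and Il21. Of 21 partner genes with several probe sets 6 turned, namely Jak1, Jak2, Nfkbiz, Tab2, Lif and Irak1. Il2rb lost its call without MA replicate 3 (adjusted p = 0.0553) or control replicate 2 (adjusted p = 0.0556), as it did in the one-way test (adjusted p = 0.0719), and Il1a without MA replicate 2 (adjusted p = 0.0799), MA replicate 3 (adjusted p = 0.0662) or control replicate 3 (adjusted p = 0.0581). Il22ra2 lost its call with a trend (adjusted p = 0.114), centring (adjusted p = 0.0518) and the block (adjusted p = 0.0647). Il1rn passed without control replicate 1 (adjusted p = 0.00959). With the replicate number as a block, 20 members were called, 7 higher and 13 lower, and 2 passed the methods' thresholds. The deviations of arrays with the same number correlated with r = 0.188, 0.0416 and 0.142, and MA replicate 2 correlated best with control replicate 3, so the numbers were not taken as pairs. Most of these genes lie within 1 log2 unit of the background, where array folds can be understated.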
